A study of Mus musculus with 16 samples.

Results

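The genes of MHC class II antigen presentation were followed in 16 primary mouse rhabdoid tumors. The members were named individually and were H2-Aa, H2-Ab1, H2-Eb1, Cd74, Ciita, H2-DMa and H2-DMb1, which are 7 of the 24982 genes in the table of raw counts and are also listed in the table of TPM values. All 7 had counts in these tumors and entered every test. The tumors came from 16 different mice of the genotype Smarcb1flox/flox;R26-CreERT2, in which tamoxifen given to the pregnant dam activates a Cre recombinase in all cell types of the embryo and removes Smarcb1, a subunit of the SWI/SNF chromatin remodelling complex. The mice were of mixed 129/SV and C57BL/6 background, and no tissue without the deletion was analysed here.

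The 5 Shh tumors lay within the brain (intra-CNS), had all been induced at embryonic day 6 and came from mice aged 30 to 180 days (median 87). The 6 intracranial Myc tumors lay inside the skull but outside the brain, had been induced at day 6 in 1, day 7 in 1 and day 8 in 4, and came from mice aged 52 to 170 days (median 110.5). The 5 extracranial Myc tumors lay in the back, jaw, nose or mouth, had been induced at day 6 in 1 and day 8 in 4, and came from mice aged 80 to 210 days (median 90). Sites are those of the sample labels, and the names Shh and Myc are the subgroups of the study. For mouse 43990A the label gives an extracranial tumor and the study's own list of tumors an intracranial one. Because every Shh tumor was intra-CNS and no Myc tumor was, subgroup and location cannot be told apart here.

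MHC class II molecules present peptides from proteins taken up by a cell to CD4+ T cells. An alpha and a beta chain assemble with the invariant chain, which fills the peptide groove and guides the complex to endosomes, where proteases degrade the invariant chain and the DM molecule exchanges its last fragment for a peptide. Expression is largely limited to dendritic cells, B cells, macrophages and activated microglia, and the coactivator CIITA, which interferon gamma induces, is required for transcription of the chains from promoters that carry an X box and a Y box. In the normal brain, few cells carry class II molecules.

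In the GENCODE annotation of GRCm38 all 7 are protein-coding, and 5 of them lie within 197134 bases of chromosome 17, between 34119541 and 34316674, in the mouse MHC. These are H2-Aa (ENSMUSG00000036594.15, 34282744 to 34287823, minus strand), H2-Ab1 (ENSMUSG00000073421.6, 34257689 to 34269419), H2-Eb1 (ENSMUSG00000060586.11, 34305867 to 34316674), H2-DMa (ENSMUSG00000037649.10, 34119541 to 34139101) and H2-DMb1 (ENSMUSG00000079547.4, 34153072 to 34160230), the last 4 on the plus strand. Ciita (ENSMUSG00000022504.10) lies on chromosome 16 from 10480059 to 10528418, and Cd74 (ENSMUSG00000024610.15) lies outside the MHC.

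The promoters show what the chains and a DM gene share in sequence. RefSeq promoter windows of 300 bases (GRCm38.p6, 250 bases before and 50 after the annotated start) were found for 4 members. The windows of H2-Aa (chr17:34287774-34288073, minus strand), H2-Eb1 (chr17:34305617-34305916, plus strand) and H2-DMb1 (chr17:34152941-34153240, plus strand) are printed 5′ to 3′ along the strand of the gene, with letters that fit an X box core (CTNGNAAC) and a Y box core (ATTGG) in capitals.
H2-Aa: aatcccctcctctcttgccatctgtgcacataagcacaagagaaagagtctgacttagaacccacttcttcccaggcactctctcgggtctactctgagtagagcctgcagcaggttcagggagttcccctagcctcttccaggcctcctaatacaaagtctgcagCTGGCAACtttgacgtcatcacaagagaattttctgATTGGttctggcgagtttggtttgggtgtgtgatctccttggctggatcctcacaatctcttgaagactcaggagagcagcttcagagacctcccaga
H2-Eb1: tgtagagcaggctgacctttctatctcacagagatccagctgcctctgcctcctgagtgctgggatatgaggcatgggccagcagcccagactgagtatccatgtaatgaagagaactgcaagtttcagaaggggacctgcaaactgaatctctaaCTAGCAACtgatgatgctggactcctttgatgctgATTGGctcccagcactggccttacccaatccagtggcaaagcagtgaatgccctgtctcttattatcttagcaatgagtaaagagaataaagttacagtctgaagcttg
H2-DMb1: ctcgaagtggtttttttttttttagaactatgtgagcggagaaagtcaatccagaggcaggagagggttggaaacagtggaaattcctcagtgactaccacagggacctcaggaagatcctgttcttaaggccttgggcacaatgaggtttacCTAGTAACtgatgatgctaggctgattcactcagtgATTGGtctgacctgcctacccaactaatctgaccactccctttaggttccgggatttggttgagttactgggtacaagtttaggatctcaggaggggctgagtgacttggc

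The starts of the X and Y letters were 36 bases apart in H2-Aa, 35 in H2-Eb1 and 36 in H2-DMb1, in the same orientation. Such a pair, with the Y letters starting 10 to 40 bases after the X letters on either strand, occurred in 117 of 32851 promoter windows of the same length, or 0.356%. These X letters were chosen after the sequences had been seen. With the letters set earlier, CCTNGNNAC, a pair occurred in 175 windows (0.533%) and among the members in H2-DMb1 alone. Neither of the 2 windows of H2-DMa held a pair, and none of the member windows held the letters TTCNNNGAA of a gamma-interferon activated site, which 8.30% of all windows hold. A match of letters is a description and not a binding site.

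The counts of a tumor summed to between 17889968 and 110177889, and a gene with 3 counts or fewer was taken to be at or under the floor of detection. Levels are given in TPM, the share of transcripts corrected for gene length. Smarcb1 itself, measured in bulk tissue, was at 3.99 to 58.1 TPM in Shh and 6.48 to 43.7 TPM in Myc tumors. A list of 5 ventral forebrain progenitor genes, summed, was at 133 to 1475 TPM in Shh and 1.03 to 129 TPM in Myc tumors. The Shh tumor of mouse 29048 stood apart with 5804 TPM over 5 oligodendrocyte marker genes, against 19.8 to 117 TPM in the other Shh tumors. In bulk tissue, fewer cells of a type and less RNA per cell cannot be told apart.

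The classical chains were abundant in the Myc tumors and, in the Shh tumors, either nearly silent or at levels of the lower Myc tumors. H2-Aa, the alpha chain of the H2-A molecule, was at 2.93, 3.43 and 5.27 TPM in the Shh tumors of mice 38594A, R26P87 and 29048, and at 181 and 223 TPM in those of R26P98 and 29050A. In the Myc tumors H2-Aa ran from 53.9 to 760 TPM in intracranial tumors (median 294) and was at 197, 231, 738, 853 and 2616 TPM in extracranial tumors. Thus 3 Shh tumors lay below every Myc tumor and the other 2 lay inside the Myc range, and the highest Shh tumor was 76.3-fold above the lowest.

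**Figure D1:**
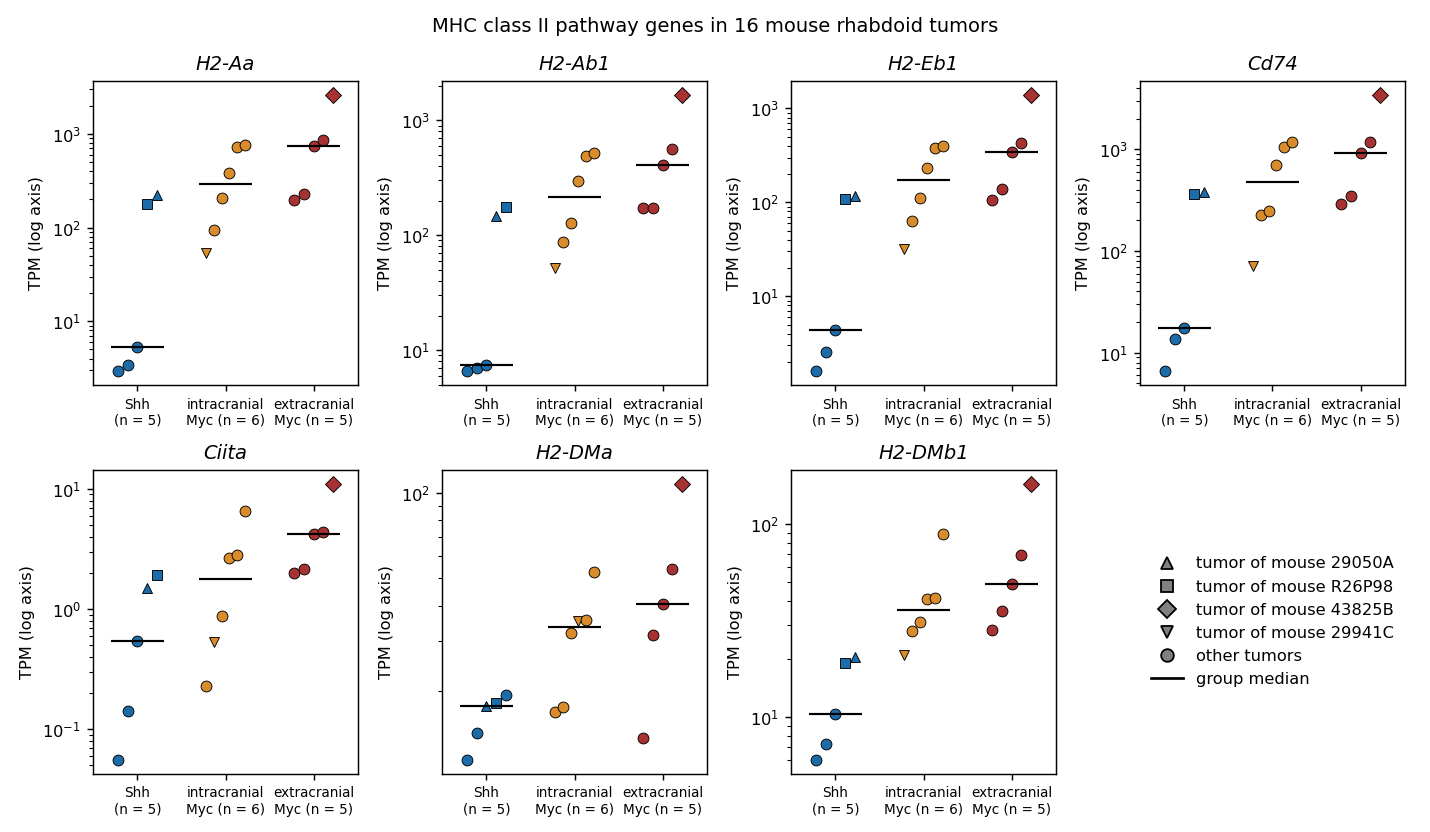
TPM (log axes) of the 7 class II genes in each of 16 tumors, by group (5 Shh, 6 intracranial Myc, 5 extracranial Myc), with a point per tumor and a line at the group median. For the 3 chains and Cd74, 3 Shh tumors lie below all Myc tumors while those of mice 29050A and R26P98 lie within the Myc range, and the tumor of mouse 43825B is the highest in each panel.

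H2-Ab1, the beta chain that pairs with H2-Aa, was at 6.55, 7.02 and 7.42 TPM in the same 3 Shh tumors and at 146 and 178 TPM in those of 29050A and R26P98. The intracranial Myc tumors ranged from 51.4 to 519 TPM (median 213), and the extracranial ones were at 173, 174, 410, 561 and 1667 TPM. H2-Eb1, the beta chain of the H2-E molecule, was at 1.59, 2.56, 4.38, 109 and 116 TPM in Shh tumors, at 31.8 to 400 TPM (median 171) in intracranial Myc tumors and at 105, 139, 344, 430 and 1396 TPM in extracranial Myc tumors. Both beta chains separated the Shh tumors in the manner of H2-Aa. The pseudogene listed as H2-Ea-ps, named for the alpha chain of H2-E, which is disrupted in C57BL/6 mice, had 0 counts in all 16 tumors.

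Cd74, the invariant chain, was the most abundant member in every Myc tumor. It was at 6.57, 13.7 and 17.3 TPM in the 3 low Shh tumors, at 362 and 383 TPM in those of R26P98 and 29050A, at 71.3 to 1180 TPM (median 478) in intracranial Myc tumors, and at 290, 346, 928, 1187 and 3427 TPM in extracranial Myc tumors. By TPM it ranked 17 among all genes in the tumor of 43825B and between 105 and 2554 in the other Myc tumors. In the Shh tumors its rank was 310 in 29050A, 363 in R26P98 and 9492 to 11180 in the other 3.

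Ciita, the coactivator, was low in all groups. In the Shh tumors it was at 0.0554 TPM (R26P87, 3 counts, at the floor), 0.142, 0.537, 1.51 and 1.92 TPM, the last 2 again from 29050A and R26P98. Intracranial Myc tumors ranged from 0.229 to 6.50 TPM (median 1.77), and extracranial Myc tumors were at 1.99, 2.17, 4.23, 4.38 and 11.1 TPM. Shh and intracranial Myc tumors overlapped, whereas every Shh tumor lay below every extracranial Myc tumor, with a gap from 1.92 to 1.99 TPM. Of 14803 genes whose mean count reached 50, 6.9% were lower in every Shh than in every extracranial Myc tumor. With either direction counted, 35.4% of these genes were separated in this way. The intracranial tumor of 43992A had the least Ciita of all Myc tumors (12 counts) with 381 TPM of H2-Aa.

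The DM genes varied less than the chains within the Shh tumors. H2-DMa, the alpha chain of the peptide exchange molecule, was at 11.4, 14.2, 17.6, 18.2 and 19.3 TPM, a 1.69-fold range, and the tumors of 29050A and R26P98 did not stand apart. In Myc tumors H2-DMa ranged from 16.8 to 52.6 TPM (intracranial, median 33.7) and was at 13.7, 31.4, 40.4, 53.7 and 108 TPM (extracranial), so that the subgroups overlapped. H2-DMb1, its beta chain, was at 6.02, 7.28, 10.4, 19.0 and 20.5 TPM in Shh tumors, a 3.40-fold range, with R26P98 and 29050A again the highest. It ranged from 21.1 to 88.4 TPM (median 36.0) in intracranial Myc tumors and was at 28.3, 35.5, 48.6, 68.7 and 161 TPM in extracranial Myc tumors. All 5 Shh tumors lay below all 11 Myc tumors for H2-DMb1, with a gap from 20.5 to 21.1 TPM between them. Reads of H2-DMb1 and its near-identical neighbour H2-DMb2 may have been divided between the genes, so that their values carry this uncertainty.

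Within tumors, the order of the members differed. In 13 tumors, the 11 Myc tumors and the Shh tumors of 29050A and R26P98, Cd74 was followed by H2-Aa and then H2-Ab1. In the other 3 Shh tumors H2-DMa lay above all 3 chains, at 11.4 to 19.3 TPM against 1.59 to 7.42 TPM. As a difference of log2(TPM + 1) values, a scale that draws low levels together, H2-Ab1 lay above H2-DMb1 by 2.55 ± 0.73 (SD, n = 11) in Myc tumors and 1.11 ± 1.71 (SD, n = 5) in Shh tumors. Among the chains, H2-Aa minus H2-Eb1 was 0.85 ± 0.15 (SD, n = 11) in Myc and 0.56 ± 0.36 (SD, n = 5) in Shh tumors. The other chain pairs had larger SDs in the 5 Shh tumors, with H2-Aa minus H2-Ab1 at -0.32 ± 0.68 (from -1.03 to 0.61) and H2-Eb1 minus H2-Ab1 at -0.88 ± 0.56 (from -1.70 to -0.33). In the 11 Myc tumors these were 0.46 ± 0.25 and -0.40 ± 0.17 (SD). Over all 7 members, the share of counted reads ran from 0.00232% (95% Wilson interval 0.00214 to 0.00252%) in the Shh tumor of R26P87 to 0.555% (0.552 to 0.558%) in the extracranial tumor of 43825B. These intervals cover counting error only.

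To ask whether the subgroups differ, Shh and Myc tumors were compared over 21854 genes by the quasi-likelihood test of edgeR. Genes were called where p, adjusted by Benjamini and Hochberg's method, was below 0.05 and the log2 fold change exceeded 1 in size. All 7 members were lower in Shh tumors, in a comparison that called 13.1% of all genes lower and 12.9% higher. The median log2 fold change of the members was -2.99, against -0.15 over all genes tested. H2-Aa was 10.6-fold lower, at -3.41 on the log2 scale (standard error 1.21, edgeR adjusted p = 0.0393). It was -3.09 (1.03, 0.0293) for H2-Ab1 and -3.33 (1.15, 0.0353) for H2-Eb1, with standard error and edgeR adjusted p in parentheses. Cd74 was 7.94-fold lower (log2 fold change -2.99, standard error 1.09, edgeR adjusted p = 0.0438) and Ciita 5.78-fold lower (-2.53, 0.93, 0.0455). The DM genes had smaller standard errors: H2-DMa was lower by 3.52-fold (-1.82, 0.42, 0.00365) and H2-DMb1 by 6.13-fold (-2.62, 0.53, 0.00137).

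**Figure D2:**
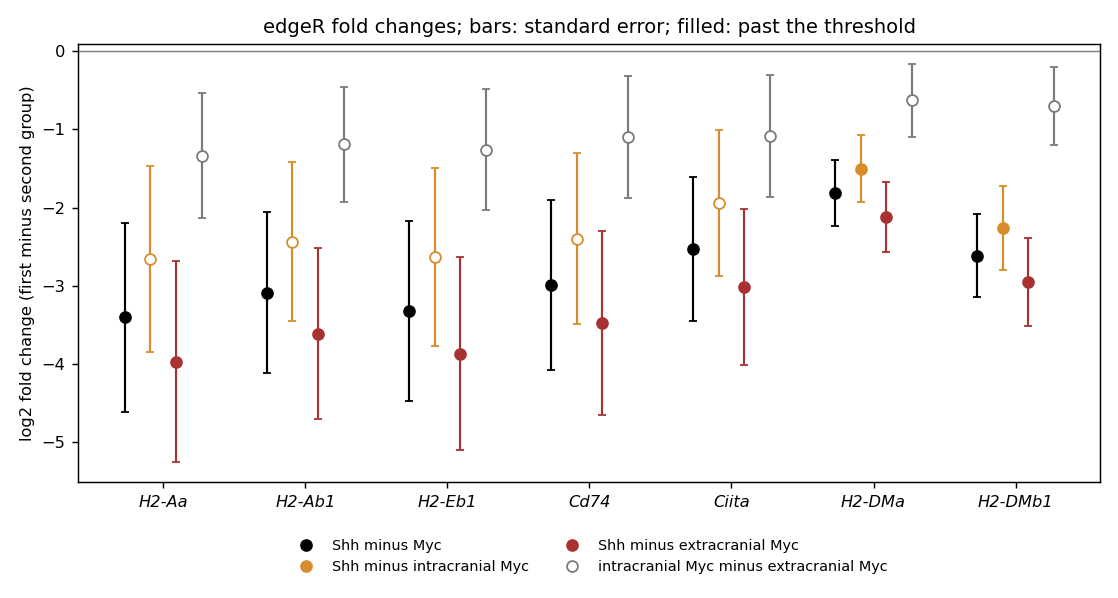
Log2 fold change of the 7 class II genes (vertical axis, first minus second group) with standard errors from edgeR in 4 comparisons, filled where past the threshold. All 7 are filled for Shh against all Myc and against extracranial Myc tumors, 2 for Shh against intracranial Myc tumors (H2-DMa and H2-DMb1) and 0 for intracranial against extracranial Myc tumors.

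The calls did not rest equally on all tumors. H2-DMa and H2-DMb1 kept theirs with any of the 16 tumors left out, with adjusted p no higher than 0.0128 and 0.00577 in edgeR. The other 5 members all lost theirs without the Shh tumor of 29048, 38594A or R26P87, and 2 members remained called in each case. Without the extracranial tumor of 43825B 3 remained (with H2-Ab1), and without that of 43987A 4 (with H2-Ab1 and H2-Eb1). Cd74 and Ciita were the least stable, with calls in 7 and 6 of the 16 omissions, since both also lost theirs without the Myc tumor of 43989C, 43990A or 29225D, Cd74 without 43992A, and Ciita without 43998A or the Shh tumor of 29050A. The highest edgeR adjusted p in these omissions was 0.0886 for Cd74 and 0.0996 for Ciita. The mouse names follow 2 schemes, 11 by number (3 Shh, 8 Myc) and 5 as R26P (2 Shh, 3 Myc), and with the scheme as a covariate 2 members were called. Numbered mice alone called 3 members, with log2 fold changes of -3.94 for H2-Aa and -3.59 for Cd74 (edgeR adjusted p = 0.0718 and 0.0649). Among R26P mice alone no gene of the genome was called by edgeR (3514 at an unadjusted p under 0.05), and H2-Aa differed by -1.43 (edgeR adjusted p = 0.58). With tumors induced at day 6 alone, 5 Shh and 2 Myc, H2-DMa and H2-DMb1 were called and H2-Aa was at -4.61 (edgeR adjusted p = 0.126).

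On single values, two-sided exact permutation tests of log2(TPM + 1), a scale that understates changes at low levels, gave unadjusted p = 0.00824 for H2-Aa, 0.0101 for H2-Ab1, 0.0087 for H2-Eb1, 0.0119 for Cd74, 0.0389 for Ciita, 0.0137 for H2-DMa and 0.000458 for H2-DMb1. The last is the smallest p that 5 against 11 tumors allow. Of 14803 genes whose mean count reached 50, 3.32% were lower in every Shh than in every Myc tumor, and 20.5% were separated in either direction. Among the members only H2-DMb1 was lower in every Shh than in every Myc tumor. The TPM scale places Shh tumors higher than the TMM scale of edgeR. The median log2 difference over all genes was 0.20 in limma on log2(TPM + 1), against -0.15 in edgeR. Limma called 6 of the 7 members, without Ciita, in a fit that called 1324 of 21841 genes lower and 4082 higher.

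To set the intracranial tumors side by side, Shh tumors were compared with the 6 intracranial Myc tumors in a fit of all 3 groups. Of the members, 2 were called lower in Shh tumors, in a comparison that called 12.2% of all genes lower and 10.8% higher. These were H2-DMa (log2 fold change -1.50, standard error 0.43, edgeR adjusted p = 0.0168) and H2-DMb1 (-2.26, 0.53, 0.00573). The other 5 had log2 fold changes from -1.94 for Ciita to -2.66 for H2-Aa, with edgeR adjusted p from 0.0867 to 0.132. DESeq2 called 6 of the 7 here, all but Ciita, in a fit that called 2996 of 21854 genes lower and 2764 higher. With limma on log2(TPM + 1) 5 were called, the 3 chains, Cd74 and H2-DMb1, while H2-DMa lost its call (-0.85, limma adjusted p = 0.133). That limma fit called 1194 of 21841 genes lower and 3987 higher. No omission of a single tumor changed the count of 2 in edgeR.

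Against the 5 extracranial Myc tumors, in the same fit and with the same Shh tumors, all 7 members were lower in Shh tumors, where 12.9% of all genes were called lower and 12.1% higher. For H2-Aa it was -3.98 on the log2 scale (standard error 1.29, edgeR adjusted p = 0.0301), with -3.48 for Cd74 (1.17, 0.0363), -3.02 for Ciita (1.0, 0.0329) and -2.95 for H2-DMb1 (0.56, 0.0014). Without the tumor of 43825B, H2-DMa and H2-DMb1 were called. With the name scheme as a covariate the same count of 2 members was reached, with H2-Aa at -3.51 (edgeR adjusted p = 0.0725). Omission of the Shh tumor of 29048 or 38594A left 3 members, that of R26P87 left 4, and without the tumor of 43987A Cd74 alone lost its call.

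Whether location matters within one subgroup was asked by comparing the 6 intracranial with the 5 extracranial Myc tumors. Of the 7 members 0 were called, by edgeR or DESeq2, and 0 had an unadjusted p under 0.05, in a comparison in which edgeR called 1 of 21261 genes (0.00470%), with 2606 at an unadjusted p under 0.05, and DESeq2 490. Group means were lower in intracranial tumors for all 7, with log2 fold changes from -0.63 for H2-DMa to -1.33 for H2-Aa (standard error 0.80) and edgeR adjusted p from 0.51 to 0.585. The groups overlapped for each gene, and exact permutation p were 0.134 to 0.437. Without the tumor of 43825B the difference in H2-Aa was -0.41 and in H2-DMb1 -0.067. Differences of severalfold can be missed here, as simulated counts for 6 against 5 tumors gave edgeR calls for 30% of 4-fold and 63.5% of 8-fold changes.

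The summed macrophage marker genes and the class II chains did not move in parallel in the Shh tumors. In bulk tissue, whether macrophages, microglia or other cells expressed these marker genes cannot be told. The summed TPM of 10 macrophage marker genes was 688 to 1103 in Shh tumors, a 1.60-fold range, while the sum of H2-Aa, H2-Ab1, H2-Eb1 and Cd74 ran from 19.0 to 869 TPM, a 45.7-fold range. The ratio of the chains to the macrophage genes was 0.0254, 0.0276 and 0.0378 in the tumors of 38594A, R26P87 and 29048, and 0.752 and 1.01 in those of R26P98 and 29050A. In Myc tumors it was 0.0857 to 1.34 (median 0.494). The lowest of these was the tumor of 29941C, with 2429 TPM of macrophage genes and 208 TPM of chains, and the intracranial tumor of R26P115 had 768 TPM and 696 TPM.

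**Figure D3:**
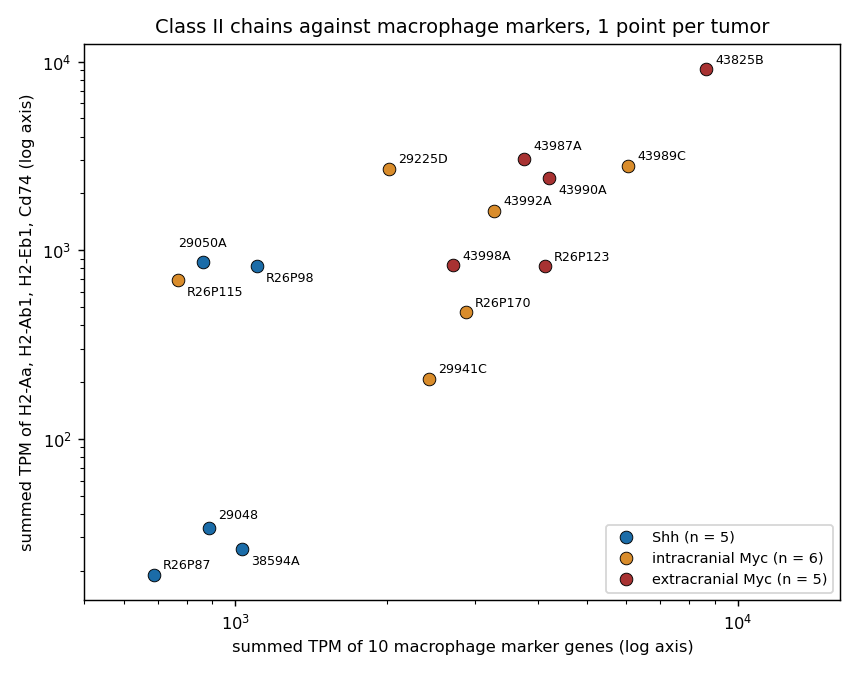
Summed TPM of H2-Aa, H2-Ab1, H2-Eb1 and Cd74 (vertical, log axis) against summed TPM of 10 macrophage marker genes (horizontal, log axis), with a point per tumor labelled by mouse. The 5 Shh tumors span 688 to 1103 TPM of macrophage genes but 19.0 to 869 TPM of chains. Which cells expressed the marker genes cannot be told in bulk tissue.

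Other values of these 5 tumors were as follows. The tumors of 29050A and R26P98 came from the oldest Shh mice, at 180 and 98 days, against 87, 45 and 30 days for R26P87, 29048 and 38594A. Their summed microglia markers were at 328 and 469 TPM, against 160, 224 and 263 TPM. The mean log2(TPM + 1) of the same 6 genes was 4.19 and 4.46, against 4.19, 5.03 and 4.57. By that mean the tumors of 29050A and R26P98 did not stand above the others. Summed T cell markers were at 3.34 and 5.31 TPM, against 3.08, 0.807 and 1.55 TPM. In the tumor of R26P87, Cd3d, Cd3e, Cd3g and Cd8a had 0 counts, so its 3.08 TPM came from Cd4 alone. Summed dendritic cell markers were at 14.3 and 16.9 TPM, against 5.53, 26.3 and 9.77 TPM. B cell markers, at 6.10 and 8.67 TPM, lay between the 3.29 and 14.7 TPM of the other tumors. The part of these cells and of age in the difference was not tested.

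Marker genes of cells that carry class II molecules, and of T and NK cells, were compared between Shh and Myc tumors in the same edgeR fit. All 10 macrophage genes were lower in Shh tumors (median log2 fold change -2.83, 9 of 10 with limma on log2(TPM + 1)), among them Mrc1, the mannose receptor (-5.65), and Cd68, a lysosomal protein (-3.29). Of 8 dendritic cell genes 2 were lower, Batf3, a factor of cross-presenting cells, and Ccr7, the receptor of migrating dendritic cells, and 6 were not called. B cell genes gave 1 lower (Cd79b) and 2 higher (Pax5 and Cr2), microglia genes 1 lower (Olfml3) and 2 higher (Siglech and Sall1), and T cell genes 3 of 5 lower. Of the dendritic cell genes Cd209a, and of NK cell genes Ncr1, were at or under the floor in all 5 Shh tumors. The part of cell numbers in the difference of the members was not tested.

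The enzymes that prepare the endosomal compartment followed the subgroup. Of 8 such genes, 6 were lower in Shh tumors and none was higher, with a median log2 fold change of -2.10. Ifi30, the lysosomal thiol reductase GILT, was at 25.5 to 56.6 TPM in Shh and 109 to 1828 TPM in Myc tumors (log2 fold change -4.35, edgeR adjusted p = 0.000175). Ctss, the protease cathepsin S, which removes the invariant chain in many antigen presenting cells, was lower by -1.81 on the log2 scale (edgeR adjusted p = 0.0022), and so were Ctsl, Ctsb, Ctsh and Lgmn. The calls were 6 of 8 also with DESeq2, with limma, with the name scheme as a covariate and with tumors of day 6 alone, and 0 of 8 with R26P mice alone. Summed over the 8 genes, Shh tumors were at 1667 to 2349 TPM and Myc tumors at 3928 to 5845 TPM without overlap, and the Shh tumors of 29050A and R26P98, at 1898 and 2349 TPM, lay among the others.

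The factors that bind class II promoters were not lower in Shh tumors. Of Rfx5, Rfxap and Rfxank, which bind the X box, Nfya, Nfyb and Nfyc, which bind the Y box, and Creb1, 0 of 7 were called for Shh against Myc tumors by edgeR or DESeq2, with a median log2 fold change of 0.31. Rfx5, Rfxank and Creb1 passed 0.05 in edgeR before and after adjustment (adjusted p = 0.0105, 0.00112 and 0.0124). Their log2 fold changes were 0.95, 0.91 and 0.75, below the required size. Limma on log2(TPM + 1) called these 3 as higher, in a fit that called 4082 of 21841 genes higher and 1324 lower. Rfx5 was at 30.2 to 58.7 TPM in Shh and 5.13 to 27.7 TPM in Myc tumors.

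A list of 10 genes covered signalling from interferon gamma to Ciita and also held the factors Spi1, Irf4 and Irf8. Of these 10, 7 were lower and 1 higher in Shh tumors (median log2 fold change -1.71). Among those lower were Ifngr1, a chain of the receptor, Jak1, a kinase bound to it, Irf1, an interferon-induced transcription factor (-3.17), Spi1, the myeloid factor PU.1 (-3.25), Irf8 and Irf4. Higher was Jak2 (1.42). With limma on log2(TPM + 1), 3 were lower and Jak2 was higher. Ifng itself had 0 counts in all 5 Shh tumors and was at or under the floor in 8 of 11 Myc tumors, with at most 18 counts. It was not called, with edgeR adjusted p = 0.0524, and was under 0.05 before adjustment.

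Among the other class II genes, H2-Oa and H2-Ob, which form the inhibitor of DM, H2-DMb2 and H2-Eb2 were low in all tumors, with sums of 2.04 to 6.76 TPM in Shh and 1.67 to 14.8 TPM in Myc tumors, and 0 of 4 were called for Shh against Myc tumors by edgeR and 2 by DESeq2. At an unadjusted p under 0.05 there were 2 in edgeR, H2-DMb2 and H2-Eb2, which were called against extracranial Myc tumors. Of 3 genes that act on the turnover of class II molecules (March1, March8 and Cd83) 0 were called, by edgeR or DESeq2, and 0 had an unadjusted p under 0.05. All 4 co-stimulatory genes were lower in Shh tumors in edgeR (Cd80, Cd86, Cd40 and Icosl, median log2 fold change -2.02), with 1 of 4 called by limma on log2(TPM + 1).

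Within the 11 Myc tumors the members were compared with each other on log2(TPM + 1), with 28 relations computed in all (21 pairs of members and 7 with age). Permutation p used 100000 resamples and were adjusted over the 28. The 6 pairs among H2-Aa, H2-Ab1, H2-Eb1 and Cd74 had Pearson's r of 0.983 to 0.997 and Spearman's rho of 0.945 to 1.0, with adjusted p of 8e-05 for each r and at most 0.00028 for rho. Without the 2 tumors farthest from the median of the first gene, r was 0.962 to 0.995. H2-DMb1 followed the 4 with r of 0.897 to 0.919 (adjusted permutation p at most 0.000252; rho 0.900 to 0.936) and H2-DMa with r of 0.706 to 0.746 (adjusted permutation p at most 0.0229; rho 0.700 to 0.764), and both sets held without the farthest tumors, at 0.789 to 0.841 and 0.792 to 0.887.

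**Figure D4:**
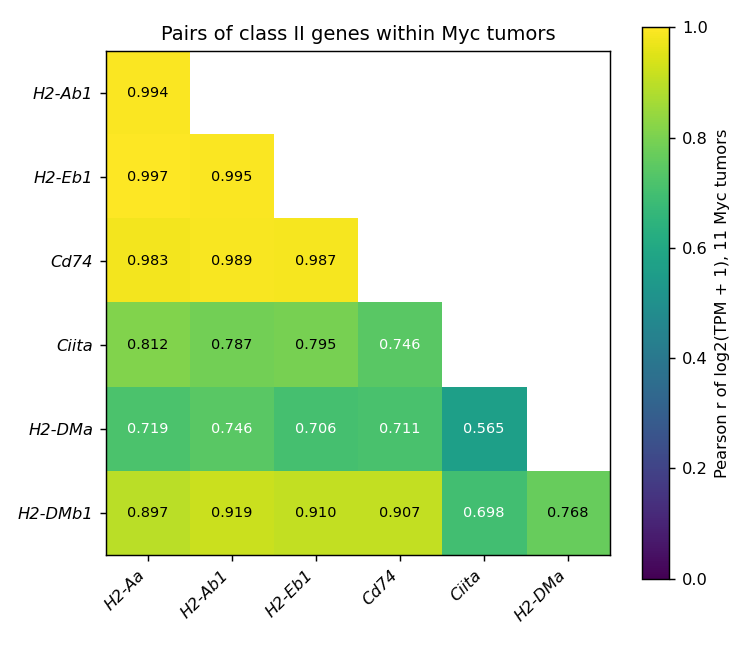
Pearson's r of log2(TPM + 1) between pairs of the 7 class II genes over the 11 Myc tumors, coloured from 0 to 1. The 6 pairs among H2-Aa, H2-Ab1, H2-Eb1 and Cd74 lie between 0.983 and 0.997, and pairs with Ciita between 0.565 and 0.812.

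Pairs with Ciita had r of 0.565 to 0.812 and rho of 0.627 to 0.845, and 5 of 6 passed an adjusted permutation p of 0.05. After omission of the 2 farthest tumors r was 0.385 to 0.626 and 0 of 6 passed over the 9 tumors left. Such an omission narrows the range and leaves fewer tumors, so it cannot show whether the relations rest on those 2. Over the 9 tumors rho was 0.55 to 0.80 and was not tested. Among the 8 Myc tumors of numbered mice, r was 0.993 to 0.998 for the 6 pairs of chains and Cd74, 0.893 to 0.919 for these with H2-DMb1, 0.629 to 0.658 with H2-DMa (0 of 4 with adjusted exact p under 0.05) and 0.554 to 0.811 for pairs with Ciita. The 3 Myc tumors of R26P mice were too few for a value. All genes of a tumor share its library, with its depth and composition.

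No relation of a member with age in days passed the adjusted threshold over the 11 Myc tumors (r from 0.301 to 0.522, rho from 0.0957 to 0.333, adjusted permutation p from 0.125 to 0.369 for r and from 0.401 to 0.78 for rho). Without the mice of 210 and 170 days, r was -0.033 to 0.556. Within the 8 numbered mice r was 0.636 to 0.811, with adjusted exact p from 0.0401 to 0.12 and 5 of 7 under 0.05, and without the oldest 2 of these it was 0.227 to 0.849 over 6 tumors.

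The genes whose pattern over the 11 Myc tumors was most like the mean log2(TPM + 1) of the 3 chains and Cd74 are given as a description, out of 14263 genes whose mean count in these tumors reached 50. The 10 highest were Gdf3 (r = 0.909), Clec7a (0.874), Stk11 (0.839), Commd8 (0.833), Kcnj2 (0.825), Arhgap15 (0.822), Slamf9 (0.820), Prph (0.820), Sh2d1b1 (0.814) and Plbd1 (0.805). Clec7a encodes dectin-1, a receptor of myeloid cells. Of the genes in the marker and pathway lists, Cd83, which protects class II molecules from degradation, ranked 40 (r = 0.742) and Cd86 ranked 70 (r = 0.706). Among macrophage genes the highest was C1qb, at rank 315 (r = 0.592), and Cd68 ranked 5921 (r = 0.0686).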

How the data were processed

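RNA of 16 tumors was sequenced by the authors as stranded, polyadenylated, paired-end libraries. The submitters' processing notes name Trim Galore, FastQC, Picard, STAR 2.5.3a and mm10, and the gene annotation is not given in the sources used here. The authors deposited raw counts per gene, without normalization, and TPM values made from them. Counts cover 24982 genes and TPM values 24951. Total counts were 17889968 to 110177889 per tumor.

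Counts were tested with edgeR 4.0.16 (TMM, glmQLFit, glmQLFTest) in R 4.3.3 on all genes with a count in any tumor of the fit, with Benjamini-Hochberg adjustment over all of them. Standard errors are the absolute log2 fold change over the root of F. On simulated counts of Shh against Myc tumors, edgeR recovered 51.5% of 4-fold and 69.5% of 8-fold changes among 200 changed genes. In the tumors 7236 of 21854 genes had an edgeR adjusted p under 0.05, so the adjustment was less strict than in the simulation. The recovered shares therefore do not give the power of the actual comparison. Single values of log2(TPM + 1) were compared with exact permutation tests (scipy 1.17.1). Alternatives were DESeq2 1.42.0, its size factors, edgeR's filter, limma 3.58.1, no fold threshold, the name scheme, tumors of day 6 or 8 alone, 43990A as intracranial and omission of each tumor. Each tumor came from a different mouse, and no sequencing batch is given. Of 99 genes written into lists, 94 were in the table. Values of 1 list gene are not reported here. The genes named were the members, list genes past the threshold or with a direct role, and the 10 genes most like the chains. Members and lists were chosen with earlier results of these data known, and genes named for their rank among list genes were chosen after their values were seen. Promoter windows came from RefSeq (GRCm38.p6), and gene positions from GENCODE M21.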

Additional observations from a re-analysis of the deposited data

Results flagged for a closer look

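By Dixon's test on the TPM of each member in each group (21 groups of 5 or 6 tumors), single tumors stood far from the rest of their group 6 times. Chance would give about 1 in 20 groups if values were normally distributed and groups independent. Most of the flags fell on 1 tumor in members that vary together, so the 6 cannot be set against that rate. The extracranial Myc tumor of mouse 43825B was far above the other 4 in H2-Aa (2616 TPM), H2-Ab1 (1667 TPM), H2-Eb1 (1396 TPM), Cd74 (3427 TPM) and Ciita (11.1 TPM). The same tumor had the highest sums of macrophage markers (8655 TPM) and dendritic cell markers (190 TPM, against 9.64 to 34.0 TPM in the other Myc tumors), whose part in its class II levels was not tested. The intracranial Myc tumor of mouse 43989C was far above the other 5 in H2-DMb1 (88.4 TPM). On log2(TPM + 1) 0 of the 21 groups held such a tumor.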

How the results depend on the processing

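No paired analysis was possible because no mouse contributed tumors to both groups of a comparison. Of the 7 members called for Shh against Myc tumors, 2 remained with the name scheme as a covariate, 2 with tumors of day 6 alone, 3 with numbered mice alone and 0 with R26P mice alone. The last 2 fits were chosen after seeing the data. Over omissions of single tumors the count ran from 2 to 7. For Shh against intracranial Myc tumors the count of 2 was 6 with DESeq2, 5 with limma on log2(TPM + 1), 5 with limma on log2(TPM + 0.1) and 2 under each omission. In both limma fits H2-DMa lost its call. There, limma on log2(TPM + 0.1) called 1423 of 21841 genes lower and 4685 higher. Against extracranial Myc tumors the count of 7 fell to 2 with the name scheme as a covariate, and omissions gave 2 to 7. The cause of these changes was not tested. Fits of a part of the tumors also held fewer tumors, and the part of their number was not tested either. Between the Myc sites 0 members were called under any alternative, and with tumors of day 8 alone the differences of H2-DMa (0.073) and H2-DMb1 (0.060) changed sign. Of all genes, 5689 were called for Shh against Myc tumors, 3533 with day 6 alone and 0 with R26P mice alone (4766 to 6649 under omissions). Between the sites the 1 call became 490 with DESeq2, 2 with limma on log2(TPM + 0.1), 0 with day 8 alone and 0 to 3 under omissions. For Shh against Myc tumors the split of 2829 higher and 2860 lower genes was 4082 and 1324 with limma on log2(TPM + 1), 4956 and 1619 with limma on log2(TPM + 0.1), and 1315 and 2218 with day 6 alone. Genes at the floor, such as Ifng and Ciita in single Shh tumors, are limited by depth.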
